A study of Mus musculus with 6 samples.

Results

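The Kv4 A-type potassium channel complex was examined in bulk RNA-seq of the dorsal hippocampus from wild-type mice in which the long non-coding RNA gene Snhg11 had been knocked down. Its members were the pore subunit genes Kcnd1, Kcnd2 and Kcnd3, the KChIP genes Kcnip1, Kcnip2, Kcnip3 and Kcnip4, and the DPP genes Dpp6 and Dpp10. These are 9 of the 55401 genes in the count files, and all 9 were among the 19969 genes that passed the filter on low counts. The set was chosen by the members' own counts in this contrast, that is with the difference between Snhg11-ASO and Control-ASO samples already in view, so the differences between groups are given as descriptions of these 6 samples and not as tests of the set.

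The comparison was between 3 Control-ASO and 3 Snhg11-ASO samples. An antisense oligonucleotide (ASO) of the gapmer kind used here directs RNase H to the RNA it pairs with. Both groups were wild-type littermates from the Ts65Dn colony, a mouse model of Down syndrome, aged 4 months. They received 50 μg of ASO per hemisphere into the dorsal dentate gyrus on both sides, and the dorsal portion of the hippocampus was taken 3 days later. The Control-ASO held the nucleotides of the Snhg11-ASO in scrambled order, so both groups were injected and no uninjected sample was compared. The dissected portion contains every cell type of the dentate gyrus and of CA1 to CA3, so the tissue is wider than the injected region. The methods give 3 mice per group, and the labels number the samples 1 to 3 within each group. Y-linked Ddx3y (62.5 to 94.7 CPM) and Xist (0.0297 to 0.184 CPM) were at levels of male tissue in all 6 samples.

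Kv4 channels carry the A-type current of neuronal dendrites, a potassium current that opens below the spike threshold, inactivates quickly and limits how far action potentials travel back into the dendrite. Kcnd1, Kcnd2 and Kcnd3 encode the pore-forming subunits Kv4.1, Kv4.2 and Kv4.3. KChIPs are small calcium-binding proteins of the neuronal calcium sensor family that bind the cytoplasmic end of the pore subunit, bring the channel to the surface and set its inactivation. DPP6 and DPP10 are single-pass membrane proteins related to dipeptidyl peptidases that have lost peptidase activity, and they speed the gating of the channel. In the hippocampus Kv4.2 is known from the dendrites of pyramidal and granule cells.

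Read pairs counted on genes numbered 28951250 to 34293344 in Control-ASO samples and 38556524 to 43997537 in Snhg11-ASO samples. Every Snhg11-ASO library was thus deeper than any Control-ASO library, and the part of depth in the differences was not tested. Snhg11, the targeted gene, was counted at 551, 436 and 209 CPM with Control-ASO, against 139, 65.4 and 69.4 CPM after Snhg11-ASO, and the groups did not overlap. CPM here are counts scaled to the same library total over the genes tested, with the TMM factor of the library. All 10 markers of dentate granule cells were detected, with a summed level of 443 to 584 CPM per sample over both groups. Snhg11-ASO sample 1 stood apart on the first principal component of log2 CPM, at -49.8, where the other 5 samples lay between -6.35 and 22.0. In bulk tissue, fewer cells of a type and less RNA per cell cannot be told apart.

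Of the 9 members, 7 had a lower and 2 a higher fitted level in Snhg11-ASO samples, and 5 were lower in every Snhg11-ASO sample than in any Control-ASO sample. These 5 were Kcnd2, Kcnip1, Kcnip4, Dpp6 and Dpp10. Over all genes tested, 7.7% were lower without overlap of the groups, 15.4% were without overlap in either direction and 48.3% had a log2 fold change below 0. No member was higher without overlap, and the values of Kcnd1, Kcnd3, Kcnip2 and Kcnip3 overlapped between the groups. The median log2 fold change (Snhg11-ASO against Control-ASO) was -0.46 over the members and 0.01 over all genes tested. By the quasi-likelihood test of edgeR, adjusted after Benjamini and Hochberg, 0 of the 9 members and 0.0% of all genes had an adjusted p under 0.05. The adjusted p of the members ran from 0.237 for Kcnip4, a value that the adjustment gave to 17 genes and of which Kcnip4 had the largest unadjusted p, to 0.997 for Kcnd1. At an unadjusted p under 0.05 edgeR listed 5 members, all lower, where 8.11% of all genes were listed and 4.43% were listed as lower. With DESeq2 the adjusted p was under 0.05 for 3 members, Kcnip4, Dpp6 and Dpp10, all lower, and for 1.29% of all genes, 0.796% as lower. Nothing is read from these counts about the complex, since the set was proposed from the same contrast. For a single gene, an exact permutation test of 3 against 3 samples cannot give a two-sided p below 0.1.

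**Figure D1:**
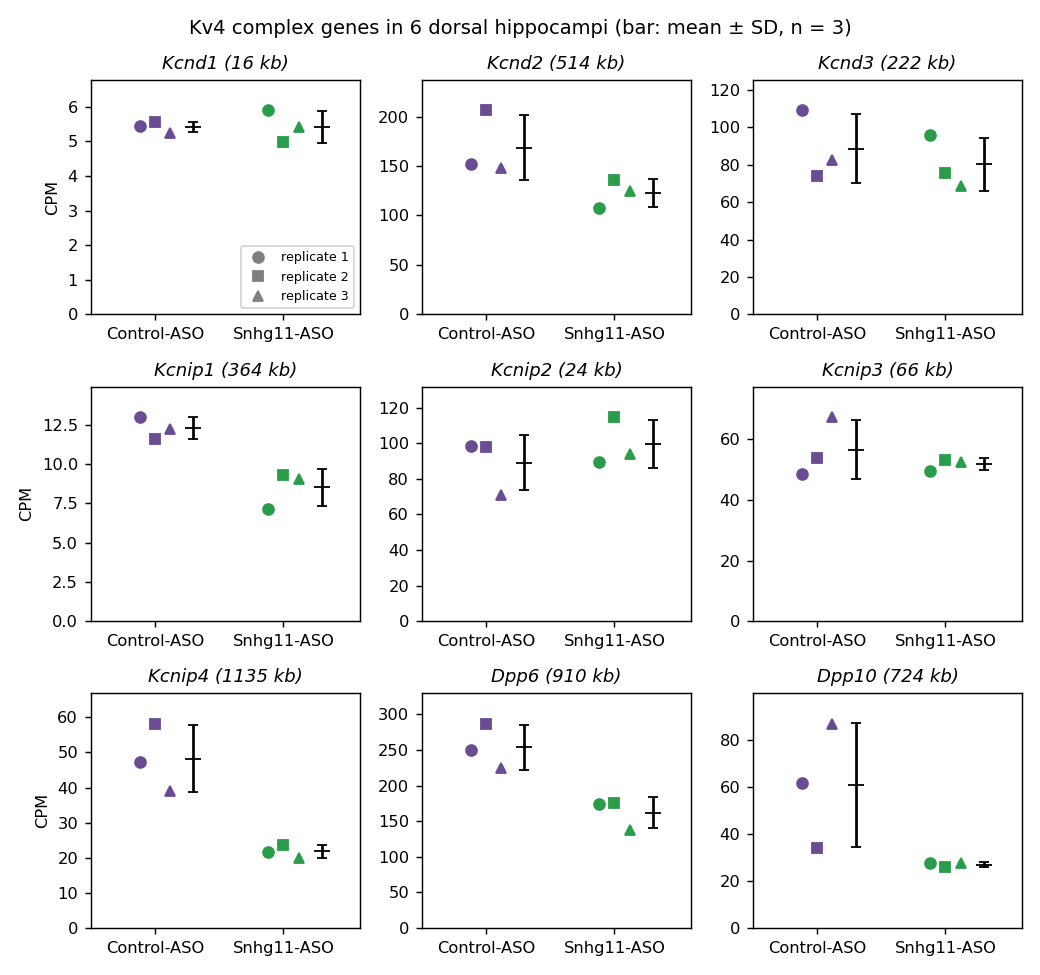
Level of each of the 9 Kv4 complex genes in CPM (vertical axis, from 0) in the 3 Control-ASO and 3 Snhg11-ASO samples. Points are samples, with the shape giving the replicate number, bars give the mean ± SD (n = 3), and the genomic span stands after each name; the Snhg11-ASO points of Kcnd2, Kcnip1, Kcnip4, Dpp6 and Dpp10 all lie below the Control-ASO points.

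Among the pore subunits, Kcnd2 was the member with separate groups. Kcnd2 (ENSMUSG00000060882), which encodes Kv4.2, lies on the plus strand at chr6:21215503-21729805 of GRCm38 and spans 514 kb. It was at 152, 206 and 148 CPM in Control-ASO samples and at 107, 136 and 125 CPM in Snhg11-ASO samples. Every Snhg11-ASO sample was below the lowest Control-ASO sample, by a small margin between Snhg11-ASO sample 2 and Control-ASO sample 3. The mean was 169 ± 32.7 CPM in Control-ASO and 123 ± 14.6 CPM in Snhg11-ASO (SD, n = 3), a log2 fold change of -0.46 with a standard error (SE) of 0.16.

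Kcnd3 (ENSMUSG00000040896; chr3:105452330-105674002, plus strand, 222 kb) encodes Kv4.3, which in the hippocampus is known from interneurons as well as principal cells. It was at 109, 74.1 and 82.8 CPM in Control-ASO samples and at 96.1, 75.8 and 68.8 CPM in Snhg11-ASO samples. The ranges of the groups overlapped over most of their length, and the log2 fold change was -0.14 (SE 0.18). Kcnd1 (ENSMUSG00000009731; chrX:7822289-7838280, plus strand, 16.0 kb), the pore gene with the lowest level, was at 5.44, 5.56 and 5.25 CPM in Control-ASO samples and at 5.90, 4.98 and 5.41 CPM in Snhg11-ASO samples. Its group means were 5.42 and 5.43 CPM, and the highest and the lowest of its 6 values were both in Snhg11-ASO samples.

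Of the KChIP genes, Kcnip4 differed most between the groups. Kcnip4 (ENSMUSG00000029088; chr5:48389502-49524907, minus strand) encodes KChIP4, some forms of which slow the inactivation of Kv4 channels, and it has the longest span of the members, 1135 kb. It was at 47.4, 58.1 and 39.1 CPM in Control-ASO samples and at 21.6, 23.7 and 20.04 CPM in Snhg11-ASO samples. The 3 Snhg11-ASO values lay close together, and the lowest Control-ASO value was well above all of them. The Snhg11-ASO mean of 21.8 ± 1.84 CPM was 45.2% of the Control-ASO mean of 48.2 ± 9.52 CPM (SD, n = 3), a log2 fold change of -1.14 (SE 0.16).

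Kcnip1 (ENSMUSG00000053519; chr11:33629339-33993152, minus strand, 364 kb), which encodes KChIP1, a subunit known from interneurons, had a lower level than the other KChIP genes. It was at 13.0, 11.6 and 12.3 CPM in Control-ASO samples and at 7.16, 9.31 and 9.07 CPM in Snhg11-ASO samples. The groups did not overlap, and the log2 fold change was -0.53 (SE 0.15). The gap between the groups was wider than the range within Control-ASO, and Snhg11-ASO sample 1 was lowest.

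Kcnip2 and Kcnip3 had overlapping groups. Kcnip2 (ENSMUSG00000025221; chr19:45791839-45816061, minus strand, 24.2 kb) encodes KChIP2, which also serves the transient outward current of the heart. It was at 98.6, 97.9 and 71.1 CPM in Control-ASO samples and at 89.6, 115 and 93.9 CPM in Snhg11-ASO samples, with a log2 fold change of 0.16 (SE 0.16). Control-ASO sample 3 was the lowest and Snhg11-ASO sample 2 the highest of its values. Kcnip3 (ENSMUSG00000079056; chr2:127456498-127522094, minus strand, 65.6 kb) encodes KChIP3, also known as DREAM or calsenilin, which has been described as a transcriptional repressor and a presenilin-binding protein. It was at 48.5, 53.7 and 67.3 CPM in Control-ASO samples and at 49.7, 53.2 and 52.5 CPM in Snhg11-ASO samples, and the log2 fold change was -0.13 (SE 0.13). All 3 Snhg11-ASO values of Kcnip3 lay within the range of the Control-ASO values.

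Both DPP genes were lower in every Snhg11-ASO sample, with different spreads. Dpp6 (ENSMUSG00000061576; chr5:26817203-27727505, plus strand, 910 kb) had the highest CPM of the members. It was at 249.8, 287 and 224 CPM in Control-ASO samples and at 174, 176 and 137 CPM in Snhg11-ASO samples. The Snhg11-ASO mean was 63.9% of the Control-ASO mean, and in both groups the highest sample was 1.28 times the lowest. The log2 fold change of Dpp6 was -0.65 (SE 0.14).

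Dpp10 (ENSMUSG00000036815; chr1:123321471-124045559, minus strand, 724 kb) was at 61.7, 33.9 and 86.9 CPM in Control-ASO samples. In Snhg11-ASO samples it was at 27.5, 25.8 and 27.7 CPM. The Control-ASO values differed 2.56-fold among themselves, whereas the highest Snhg11-ASO value was 1.08 times the lowest. The log2 fold change was -1.17 with an SE of 0.31, the widest of the members, and the sample that came closest to the Snhg11-ASO group was Control-ASO sample 2. That sample also had the lowest level of choroid plexus markers, a median of -2.81 on the log2 scale from the mean of the 6 samples, where Control-ASO samples 1 and 3 had 2.17 and 1.64. The 10 choroid plexus markers had summed levels of 42.4 to 1972 CPM in Control-ASO and 74.9 to 1341 CPM in Snhg11-ASO samples, and all 10 had overlapping groups and a log2 fold change below 0, with a median of -0.93. The part of choroid plexus tissue in the level of Dpp10 was not tested.

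Summed over each class, the DPP genes went from 314 ± 5.32 CPM in Control-ASO to 189 ± 21.2 CPM in Snhg11-ASO (SD, n = 3), which is 60.1% of the Control-ASO mean. The summed Control-ASO values of the DPP genes were 311, 321 and 311 CPM, so the sum varied less than either gene, with Dpp6 high where Dpp10 was low in sample 2. The pore genes summed to 263 ± 25.1 and 208 ± 9.03 CPM, or 79.3%, and neither of these sums overlapped between the groups. The KChIP genes summed to 206 ± 15.8 and 182 ± 17.3 CPM, or 88.0%, and their sums overlapped.

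Within a class, the make-up was compared on levels per length, as CPM per kb of merged exons, because counts scale with the length of the transcript. Kcnip4 made up 22.8%, 26.2% and 20.7% of the KChIP level in Control-ASO samples and 12.7%, 11.7% and 11.3% in Snhg11-ASO samples. The share was 23.2% ± 2.78 in Control-ASO and 11.9% ± 0.728 in Snhg11-ASO, with no overlap. Kcnip2, whose own CPM overlapped between the groups, made up 44.9% ± 5.29 and 56.4% ± 2.17 of the KChIP level, higher in every Snhg11-ASO sample. The share of Kcnip3 was 28.4% ± 6.96 and 29.0% ± 1.94, with overlap, and that of Kcnip1 was 3.50% and 2.71%. Kcnip1 was lower without overlap on merged exons but overlapped when the length of the longest transcript was used.

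Among the pore genes Kcnd2 held 75.8% ± 5.89 of the level in Control-ASO and 71.6% ± 5.59 in Snhg11-ASO, and these shares overlapped, as did those of Kcnd3 at 21.8% and 25.3%. Kcnd1 held 2.40% and 3.11%, higher in every Snhg11-ASO sample. In the DPP class Dpp6 held 84.0% ± 7.40 and 88.3% ± 1.78, again with overlap, so that the ratio of both DPP genes was not separated between the groups. The values within a class are shares of a whole, and a lower share of a gene raises the shares of the others.

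**Figure D2:**
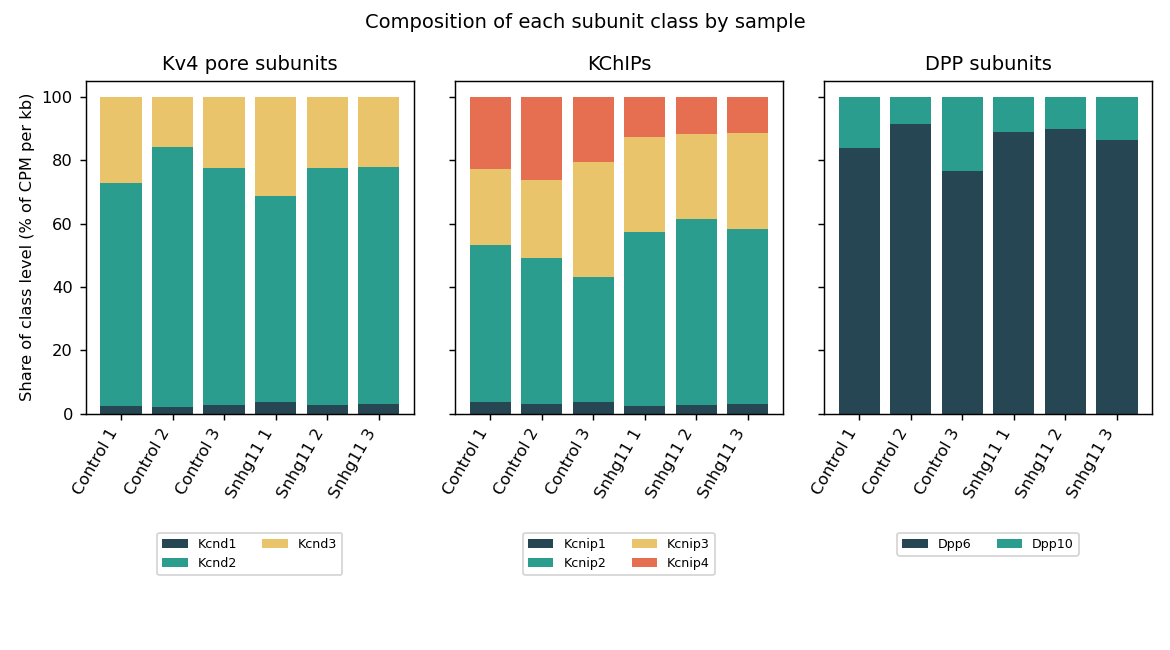
Share of each gene in the summed level of its subunit class (vertical axis, % of CPM per kb of merged exons) in each of the 6 samples, for pore subunits, KChIPs and DPP subunits. Kcnip4 takes 20.7% to 26.2% of the KChIP level in Control-ASO and 11.3% to 12.7% in Snhg11-ASO samples, while the Dpp6 and Kcnd2 shares overlap between the groups.

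Per kb of merged exons, the order of the 9 genes in Control-ASO samples was Kcnd2, Kcnip2, Dpp6, Kcnip3, Kcnip4, Kcnd3, Dpp10, Kcnip1 and Kcnd1. Kcnd2 led at 32.7 ± 6.34 CPM per kb, and its range did not overlap that of Kcnip2 at 25.7 ± 4.51. The next neighbours were not separated by their ranges: Kcnip2 and Dpp6 (20.5 ± 2.54), Dpp6 and Kcnip3 (15.9 ± 2.74), Kcnip3 and Kcnip4 (13.3 ± 2.63), and Kcnip4 and Kcnd3 (9.25 ± 1.91) all overlapped. Dpp10 (3.85 ± 1.68), Kcnip1 (1.98 ± 0.112) and Kcnd1 (1.02 ± 0.029 CPM per kb) formed the low end, each separate from its neighbours. In Snhg11-ASO samples Kcnip2 led at 28.6 CPM per kb before Kcnd2 at 23.8, and Kcnip4 at 6.01 came after Dpp6 at 13.1 and Kcnd3 at 8.37. The place of Dpp6 depends on the length used, since its longest transcript measures 4.72 kb and its merged exons 12.3 kb. On the longest transcript Dpp6 came before Kcnd2, at 53.7 ± 6.64 CPM per kb in Control-ASO, and 6 of the 9 genes kept their rank.

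The 5 members with separate groups were the 5 with the longest spans. Their spans ran from 364 to 1135 kb, and those of the 4 with overlapping groups from 16.0 to 222 kb. Span is the distance between the annotated start and end of a gene. Over all genes, the log2 fold change also went down with span. The median was 0.01 for the 10776 genes spanning up to 20 kb and 0.03 for the 6716 genes of 20 to 100 kb. It was -0.10 for the 428 genes of 200 to 300 kb, -0.16 for the 335 of 300 to 500 kb and -0.37 for the 223 longer ones. In this last class, which holds Kcnd2, Kcnip4, Dpp6 and Dpp10, 90.1% of genes had a log2 fold change below 0 and 51.1% were lower without overlap. Kcnip4 and Dpp10, at -1.14 and -1.17, were beyond the 10th percentile of the class, -0.82, while Kcnd2 and Dpp6 lay between that value and the median. Kcnip1 at -0.53 lay between the median and the 10th percentile, -0.59, of the class of 300 to 500 kb.

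**Figure D3:**
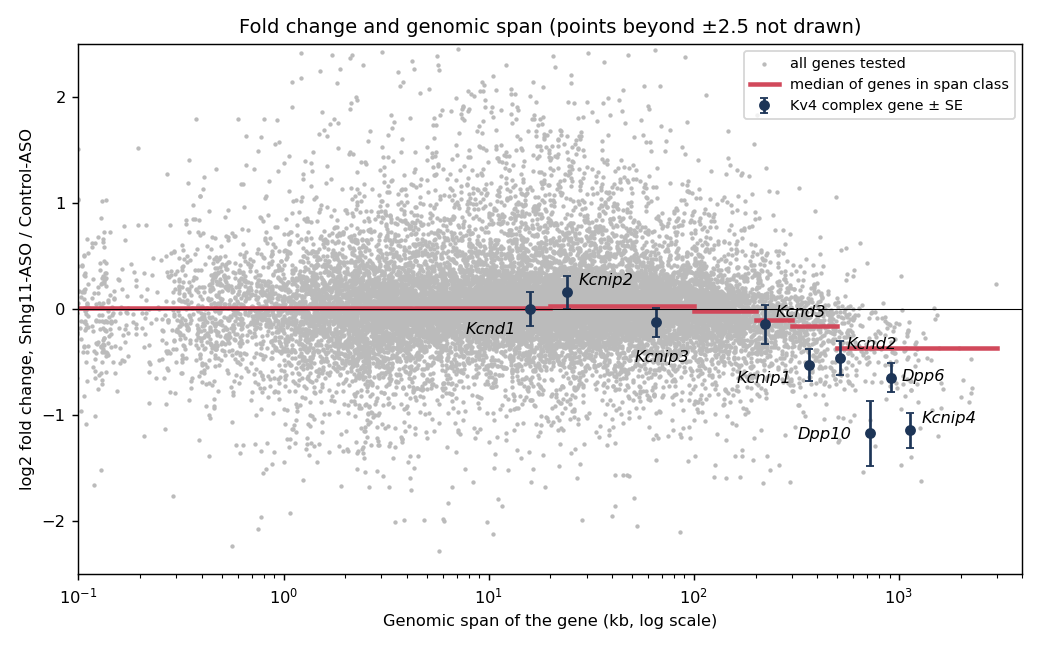
Log2 fold change (Snhg11-ASO against Control-ASO, vertical axis) against genomic span in kb (log scale) for all genes tested (grey), with the median of each span class (line) and the 9 Kv4 complex genes ± SE. The class medians run from 0.01 up to 20 kb to -0.37 beyond 500 kb. Kcnd2, Kcnip4, Dpp6 and Dpp10 lie below the median of their class, and Kcnip4 and Dpp10 also below its 10th percentile, -0.82.

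When each sample was corrected for its own loess trend with span, all 5 kept a negative value. The trend was fitted over all tested genes with a known span. Only 223 of these were in the class beyond 500 kb, whose median was -0.37 before correction. How much of the trend was left in these longest genes was not tested, so the corrected values may still hold part of it. Kcnip4 had a corrected log2 fold change of -0.83 (SE 0.15), Dpp10 of -0.92 (SE 0.32), Dpp6 of -0.36 (SE 0.12), Kcnip1 of -0.36 (SE 0.15) and Kcnd2 of -0.25 (SE 0.16). Kcnip1, Kcnip4 and Dpp6 remained lower without overlap, where 6.97% of all genes were after this correction, and the groups of Kcnd2 and Dpp10 overlapped. The median of the members went from -0.46 to -0.25. The 4 shorter genes moved less, to -0.04 for Kcnd3, -0.12 for Kcnip3, 0.13 for Kcnip2 and -0.02 for Kcnd1.

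Single samples shifted some members more than others. Leaving out each sample in turn, Kcnip4 ranged from -1.28 to -0.99, Dpp6 from -0.73 to -0.54 and Kcnip1 from -0.60 to -0.42. Dpp10 ranged from -1.46 without Control-ASO sample 2 to -0.83 without Control-ASO sample 3, and Kcnd2 came to -0.29 without Control-ASO sample 2. The direction was the same in every such fit for these 5 genes and for Kcnip2, at 0.01 to 0.23. Kcnd3 went to 0.02 without Control-ASO sample 1, Kcnip3 to 0.01 without Control-ASO sample 3, and Kcnd1 lay between -0.06 and 0.06. Without Snhg11-ASO sample 1, which stood apart, the same 5 members were lower without overlap, beside 13.5% of all genes. Leaving out a sample cannot make separate groups overlap, so for these 5 that outcome was fixed in advance. The set was also the same under the other scalings, filters and strand settings, and only the omission of Control-ASO sample 1 added a gene, Kcnip3.

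**Figure D4:**
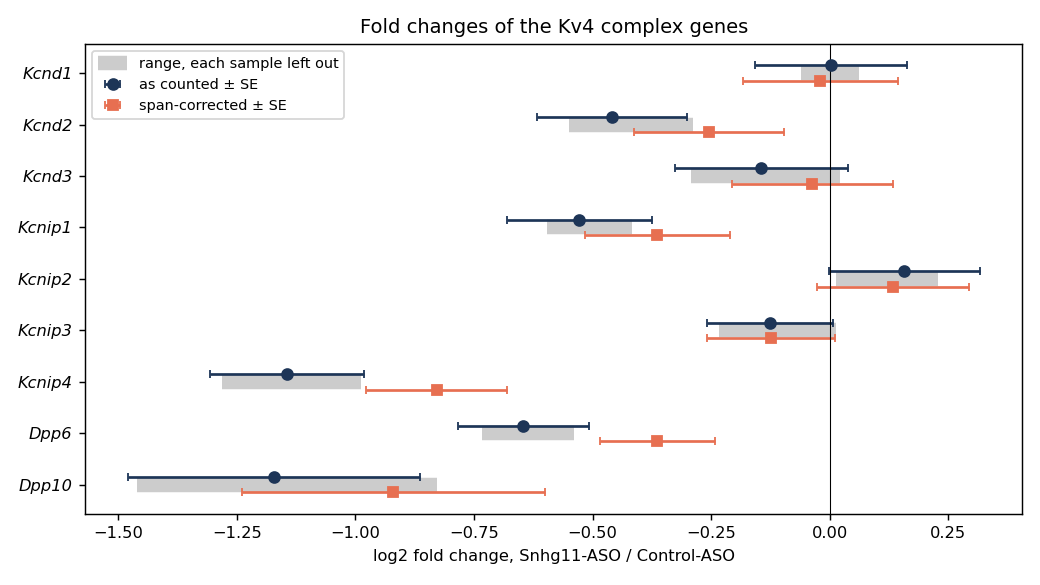
Log2 fold change of each Kv4 complex gene (horizontal axis) as counted and after the correction for span, each ± SE, with a grey bar for the range over fits that leave out each sample in turn. Kcnip4 runs from -1.28 to -0.99 as samples are left out and stands at -0.83 after correction, and the bars of Kcnd1, Kcnd3 and Kcnip3 cross 0.

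The long members consist almost wholly of introns. Exons cover 0.319% of the span of Kcnip4, 1.002% of Kcnd2, 1.36% of Dpp6, 1.70% of Kcnip1 and 2.18% of Dpp10, against 33.1% of Kcnd1. In the longest annotated transcript, the intron after the opening exon measures 803 kb in Kcnip4, 497 kb in Kcnd2, 347 kb in Kcnip1 and 333 kb in Dpp6, and is the longest intron of each. Dpp10 has its longest intron, 168 kb, further on, and Kcnd3 likewise has an intron of 199 kb. Because the libraries were made from ribosome-depleted total RNA, unspliced RNA could be read as well, and the annotated genes that lie inside a member on its strand were therefore listed.

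The annotation holds 40 genes that lie within a member on the same strand, of which 39 were tested, and none shares an exonic base with its host. All 39 had a log2 fold change below 0, and 34 of them were lower without overlap. They are not replicates, since those in the same host may share its transcript, and reads of unspliced host RNA and of a separate nested RNA cannot be told apart. Most are of the GENCODE class TEC, regions of transcription with no settled gene model. Over all 1682 TEC genes tested, the median log2 fold change was -0.08, 59.1% were below 0 and 14.0% were lower without overlap.

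Kcnip4 holds 24 of them, all TEC. They summed to 427, 479 and 327 CPM in Control-ASO samples and to 152, 209 and 189 CPM in Snhg11-ASO samples, which is 411 ± 77.3 and 183 ± 28.7 CPM (SD, n = 3) or 44.6% of the Control-ASO mean. All 24 were lower without overlap, with a median of -1.28 and a range of -1.39 to -0.61, and the exons of Kcnip4 stood at -1.14. Their summed counts were 705% to 941% of the exonic count of Kcnip4, so most read pairs counted along this gene lay outside its exons. Along the gene, 2900064K03Rik at 5.97 kb from the annotated start had a log2 fold change of -0.61 (SE 0.24), Gm42772 at 113 kb had -0.90 (SE 0.23) and Gm42771 at 303 kb had -1.15 (SE 0.20). From Gm42770 at 396 kb (-1.39) to Gm43648 at 898 kb (-1.25) the values stayed between -1.39 and -1.21. Gm43831 at 987 kb was at -0.92 (SE 0.26). The nested gene nearest the start thus differed less between the groups than those in the middle of the gene, with SEs of 0.16 to 0.31 over the 24.

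**Figure D5:**
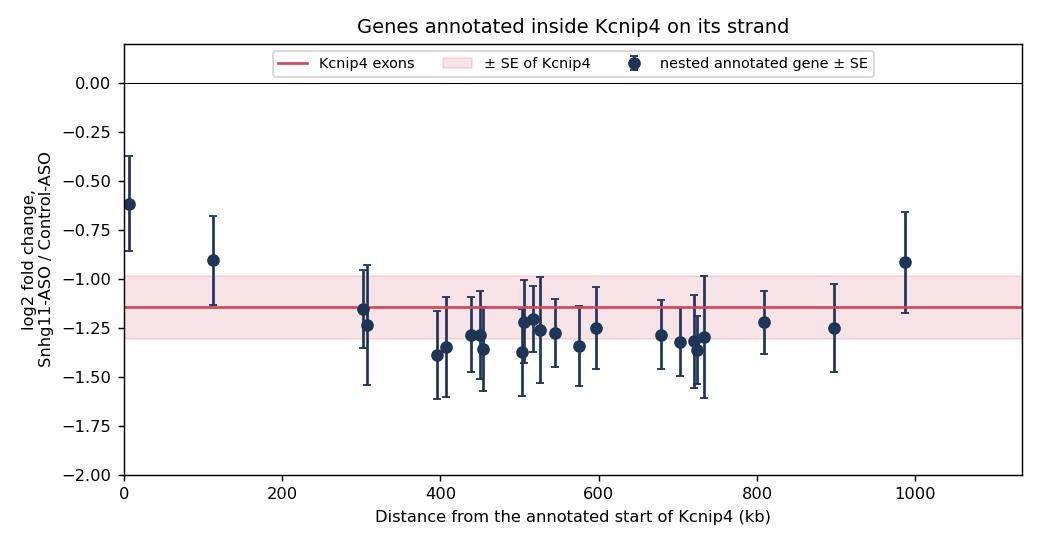
Log2 fold change ± SE (Snhg11-ASO against Control-ASO, vertical axis) of the 24 genes annotated inside Kcnip4 on its strand, against their distance in kb from the annotated start of Kcnip4. The line and band give Kcnip4 itself, -1.14 ± 0.16; the values run from -0.61 at 5.97 kb to between -1.39 and -1.21 from 396 to 898 kb.

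In the other hosts the nested genes were few. Dpp6 holds Gm43776 and Gm43502, both at -0.98 and both lower without overlap, where the exons of Dpp6 stood at -0.65. Dpp10 holds 8 tested genes, all below 0 and 6 without overlap, with a median of -1.31. In Kcnd2, Gm42583 at 43.4 kb from the start was at 71.9, 89.2 and 69.6 CPM in Control-ASO and at 51.8, 74.6 and 73.7 CPM in Snhg11-ASO samples, with overlap and a log2 fold change of -0.21 (SE 0.17). Further along Kcnd2, Gm42584 at 276 kb had -0.59 (SE 0.33) and 5330437M03Rik at 466 kb had -0.43 (SE 0.21), both lower without overlap. Kcnd3 and Kcnip3 each hold a single tested nested gene, Gm43847 (-0.42, SE 0.60) and Gm22613 (-0.29, SE 0.38), with overlapping groups.

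Kcnip4 was the only member with a sizeable count on the opposite strand. Scaled to library size, that strand was at 3.98, 3.36 and 2.998 CPM in Control-ASO samples and at 4.196, 3.64 and 3.16 CPM in Snhg11-ASO samples, and the groups overlapped. Its share of the strand-resolved counts of Kcnip4 was 5.46% to 7.75% in Control-ASO and 13.3% to 16.2% in Snhg11-ASO samples, where the count on the gene's own strand was lower. In the other 8 members this share was at most 0.621%. The exons of Kcnip4 share 7.36% of their bases with 5730480H06Rik and Gm20700 on the opposite strand. 5730480H06Rik was itself at 15.5, 13.3 and 14.99 CPM in Control-ASO and at 18.1, 15.3 and 14.2 CPM in Snhg11-ASO samples, with overlapping groups. When both strands were counted together, the log2 fold change of Kcnip4 was -1.03.

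The sequences before the starts of the 5 members with separate groups are shown so that their base make-up can be compared. RefSeq on GRCm38.p6 gives promoter windows, 250 bases before to 50 after a start, for 8 of the 9 members and for 15 starts. The start printed is the most upstream in that table. For Kcnip4 it lies 239 kb inside the GENCODE start from which the distances of nested genes were taken, so this window is within the gene as counted, and for the other 4 it lies at or near the GENCODE start. In the sequences, capitals mark the GC box, GGGCGG on the strand shown or CCGCCC for its complement. Kcnd2 is at chr6:21215096-21215395 (plus), Kcnip1 at chr11:33993144-33993443 (minus), Kcnip4 at chr5:49285610-49285909 (minus), Dpp6 at chr5:26817107-26817406 (plus) and Dpp10 at chr1:124045510-124045809 (minus).
Kcnd2: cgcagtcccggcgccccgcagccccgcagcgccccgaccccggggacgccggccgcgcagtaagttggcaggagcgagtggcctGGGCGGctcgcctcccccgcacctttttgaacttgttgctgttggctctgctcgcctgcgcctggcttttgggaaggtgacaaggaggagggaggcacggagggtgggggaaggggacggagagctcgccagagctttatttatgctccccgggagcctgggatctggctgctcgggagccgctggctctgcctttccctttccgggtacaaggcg
Kcnip1: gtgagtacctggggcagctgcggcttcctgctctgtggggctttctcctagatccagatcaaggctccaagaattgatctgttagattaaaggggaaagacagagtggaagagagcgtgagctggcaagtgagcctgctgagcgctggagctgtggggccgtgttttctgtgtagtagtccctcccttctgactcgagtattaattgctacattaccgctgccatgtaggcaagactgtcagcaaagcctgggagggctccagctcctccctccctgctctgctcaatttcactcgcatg
Kcnip4: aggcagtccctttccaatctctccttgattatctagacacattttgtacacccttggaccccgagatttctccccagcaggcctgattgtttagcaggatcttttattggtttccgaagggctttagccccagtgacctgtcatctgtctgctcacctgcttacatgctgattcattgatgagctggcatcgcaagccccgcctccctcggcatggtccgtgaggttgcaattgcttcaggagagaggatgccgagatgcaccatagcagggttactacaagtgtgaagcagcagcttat
Dpp6: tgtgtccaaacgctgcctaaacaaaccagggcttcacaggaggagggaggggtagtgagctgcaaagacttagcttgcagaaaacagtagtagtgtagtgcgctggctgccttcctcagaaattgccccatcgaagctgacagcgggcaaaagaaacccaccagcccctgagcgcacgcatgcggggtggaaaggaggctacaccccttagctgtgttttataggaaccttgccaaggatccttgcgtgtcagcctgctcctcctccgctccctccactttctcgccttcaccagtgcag
Dpp10: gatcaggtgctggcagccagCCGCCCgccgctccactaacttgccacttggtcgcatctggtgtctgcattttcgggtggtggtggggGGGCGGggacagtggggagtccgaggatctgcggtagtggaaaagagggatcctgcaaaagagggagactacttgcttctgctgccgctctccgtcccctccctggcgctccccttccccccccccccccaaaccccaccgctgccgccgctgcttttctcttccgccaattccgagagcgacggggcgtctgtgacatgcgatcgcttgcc

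The windows of Kcnd2 and Dpp10 were rich in G and C, at 68.7% and 65.0%, with 26 and 21 CpG pairs. Those of Kcnip1, Kcnip4 and Dpp6 had 54.3%, 51% and 56.0% G and C and 7, 7 and 10 CpG pairs, near the median over all 32851 promoter windows of 52.7% and 7 CpG pairs. The GC box was present in 8 of the 15 windows of members and in 35.7% of all windows, and among the 5 printed it was found in Kcnd2 and Dpp10 only. TATAAA was found in 1 of the 15, the printed window of Dpp6, and in 13.6% of all, the E-box CAGCTG in 3 and in 16.3%. The CRE half-site TGACG and the full CRE TGACGTCA, which contains it, were in none of the 15 and in 20.8% and 1.79% of all windows, each motif being searched on both strands. These matches describe the letters in the windows and no binding.

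Over the 6 samples, Kcnip4 and Dpp6 had the most similar patterns within the complex, with a Pearson r of 0.97 on log2 CPM, and Kcnip4 and Kcnd2 had 0.89. Kcnip2 ran opposite to Kcnip3 at -0.72 and to Dpp10 at -0.69. These 6 points fall into the 2 groups and share the libraries, so r describes the pattern only. Over all genes tested, the 2 genes most like each member were read off in the same way. They were Slc9a7 (0.989) and Mrps2 (0.987) for Kcnd2, Grhl3 (0.995) and Ppargc1b (0.995) for Kcnd3, and Fkbp11 (0.998) and Gm28693 (0.980) for Kcnd1. For the KChIP genes they were Rps15-ps2 (0.9997) and Trpm2 (0.997) for Kcnip1, Zswim5 (0.980) and Col11a1 (0.976) for Kcnip2, AI839979 (0.997) and Ccdc163 (0.988) for Kcnip3, and Gm43317 (0.997), which is nested in it, and Scfd2 (0.993) for Kcnip4. They were Nrxn3 (0.997) and Exoc1 (0.996) for Dpp6 and Pgr (0.999) and Ptger3 (0.995) for Dpp10. With 6 samples such values are common, and 18 to 174 genes had an r over 0.95 with a given member. Some of the named genes were scarce, so that their r rests on few counts. Rps15-ps2 was at 0.105 to 0.374 CPM, AI839979 at 0.306 to 0.564, Grhl3 at 0.481 to 0.918 and Fkbp11 at 0.215 to 1.21 CPM over the 6 samples.

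Kcna4 and Kcnc4, which also carry A-type current, did not separate the groups. Kcna4, which encodes Kv1.4, the axonal A-type subunit, was at 81.3 ± 6.86 CPM in Control-ASO and 79.8 ± 9.32 CPM in Snhg11-ASO (SD, n = 3), a log2 fold change of -0.03 (SE 0.12). Kcnc4, which encodes the fast-inactivating Kv3.4, was at 32.9 ± 7.38 and 27.2 ± 10.8 CPM, a log2 fold change of -0.28 (SE 0.29). Both had overlapping groups, and edgeR called 0 of them.

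The active relatives of the DPP subunits, Dpp4, Fap, Dpp8 and Dpp9, all had values below 0 with overlapping groups, and edgeR called 0 of the 4. Dpp8, a cytosolic peptidase, was at 235 ± 17.5 and 227 ± 17.1 CPM, a log2 fold change of -0.05 (SE 0.10), and Dpp9 was at -0.15 (SE 0.12). Dpp4 and Fap, the cell-surface peptidases, were scarce at 1.82 and 2.45 CPM in Control-ASO, with log2 fold changes of -0.80 (SE 0.42) and -0.32 (SE 0.62). The median over the 4 was -0.24.

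Of the neuronal calcium sensors related to the KChIPs, 7 of 8 were tested, 4 were lower and 3 higher, the median was -0.06, and edgeR called 0. Hpcal1 was the gene without overlap, at 14.7, 9.16 and 15.2 CPM in Control-ASO and 5.61, 7.32 and 8.45 CPM in Snhg11-ASO samples, a log2 fold change of -0.87 (SE 0.25). Over all genes tested, 7.7% were lower without overlap. Hpca, encoding hippocalcin, the abundant sensor of hippocampal pyramidal cells, was at 756 ± 230 CPM in Control-ASO and 1004 ± 79.8 CPM in Snhg11-ASO, with overlap and a log2 fold change of 0.41 (SE 0.21). Hpcal4 was at 554 ± 20.1 and 518 ± 74.4 CPM. Rcvrn, at 0.674 and 1.16 CPM, had 0.78 with an SE of 0.90.

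Partners and modulators of Kv4 channels were tested for 27 of 30 listed genes, of which 18 were lower and 9 higher, with a median of -0.04 and 0 called by edgeR. Dlg1, Akap5 and Mapk3 were lower without overlap at -0.36 (SE 0.15), -0.23 (SE 0.11) and -0.34 (SE 0.18). Over all genes tested, 7.7% were lower without overlap and 15.4% were without overlap in either direction. No result about the partners is read from these genes. Dlg1 encodes the scaffold SAP97, Akap5 the anchor that brings protein kinase A to Kv4.2, and Mapk3 the kinase ERK1, which phosphorylates Kv4.2. Flna, encoding filamin A, an actin crosslinker that binds Kv4 subunits, was higher without overlap at 0.69 (SE 0.28), with 381 CPM in Snhg11-ASO sample 1 and 197 and 183 CPM in samples 2 and 3. The most abundant partners were Ppp3ca at 1293 ± 281 and 1285 ± 132 CPM and Grin2b at 1285 ± 224 and 1105 ± 216 CPM, with overlapping groups. Kcne2 and Kcne4 had the values furthest from 0, -2.28 (SE 1.25) and 1.10 (SE 0.68), at 4.64 and 0.699 CPM in Control-ASO. Kcne2 is also among the choroid plexus markers, and both had overlapping groups.

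Cell type markers were read beside the members. Interneuron markers, of interest for Kcnip1 and Kcnd3, had 9 of 10 genes lower, 3 of them without overlap, a median of -0.24 and summed levels of 496.1 to 562 CPM in Control-ASO and 438 to 495.8 CPM in Snhg11-ASO samples. Over all genes tested, 7.7% were lower without overlap and 48.3% had a log2 fold change below 0. Pan-neuronal markers had 9 of 10 lower, 2 of them without overlap, and 1 higher, also without overlap. Their median was -0.11, with sums of 4904 to 5265 CPM in Control-ASO and 4171 to 5044 CPM in Snhg11-ASO samples. Granule cell markers had a median of 0.05, CA1 markers, of which 7 of 8 were tested, 0.01, and CA3 markers 0.19. Glial and vascular lists had medians of 0.00 (astrocyte), 0.18 (oligodendrocyte), 0.06 (microglia) and 0.03 (endothelial), and edgeR called 0 genes in each list. In Snhg11-ASO sample 1 the glial lists were low, with medians of -0.74, -0.86 and -1.30 for astrocytes, oligodendrocytes and microglia on the log2 scale from the mean of the samples. In that sample Kcnd2 (107 CPM) and Kcnip1 (7.16 CPM) were at their lowest of the 6 samples, while Kcnip4 (21.6 CPM), Dpp6 (174 CPM) and Dpp10 (27.5 CPM) lay between the other Snhg11-ASO values. The part of cell make-up in the members' levels was not tested.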

How the data were processed

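Paired-end reads of stranded, ribosome-depleted total RNA from 6 samples were aligned by the authors to mm10 with STAR 2.5.2a, and the deposited values are raw counts of read pairs per gene, without normalization or pooling. The methods name Rsubread for counting, while the files have the layout STAR writes. Counts of the reverse strand, which held 96.2% to 96.8% of strand-resolved counts, were used. The 4 summary lines of each file, 43.5% to 51.4% of read pairs, were left out. STAR does not count pairs on exons of several genes (0.600% to 0.761%).

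Names and positions came from GENCODE M21 (55141 of 55401 identifiers matched). Genes were filtered with filterByExpr (minimum count 10), scaled by TMM (factors 0.982 to 1.02) and compared with edgeR 4.0.16 (quasi-likelihood, Benjamini-Hochberg, 0.05) in R 4.3.3. Log2 CPM used a prior count of 2, and the SE is the absolute log2 fold change over the root of F. The code was tested on simulated counts. The members and lists were chosen with earlier results of these data known. Named genes were the members, Snhg11, the 2 genes most like each member, and in each related list the 2 with the largest fold change and the 2 with the highest CPM. Dlg1, Akap5, Mapk3, Flna and single nested genes were named after their values were seen, and 1 listed gene is not reported here.

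Alternatives were DESeq2 1.42.0, other scalings and filters, both strands, the replicate block, a span correction, and leaving out each sample. DESeq2 without each Snhg11-ASO sample, counts of separate groups under the alternatives and the class shares under another length or strand were added after seeing the data. The study removed 1 Snhg11-ASO sample without naming it, so all 3 were kept. Same-numbered samples deviated together (correlations 0.297, 0.179 and 0.103), although Control-ASO sample 2 correlated slightly better with Snhg11-ASO sample 3 (0.188). They were taken as pairs only in the fits with the replicate block, and the main fit was unpaired. The pairing comes from the values, not the labels. P-values set the difference between groups against the spread between these samples, which is estimated in part from all genes tested.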

Additional observations from a re-analysis of the deposited data

How the results depend on the processing

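The main edgeR fit called 0 genes, so it held no call that could change sign. Across the alternatives tried, the log2 fold changes of Kcnd1, Kcnd3 and Kcnip3 took both signs, and those of the other members kept theirs. With DESeq2, 258 genes and 3 members (Kcnip4, Dpp6, Dpp10) had an adjusted p under 0.05, and Snhg11 was called at -2.12, where edgeR gave 0 genes, 0 members and -2.13 (adjusted p = 0.395). DESeq2 without Snhg11-ASO sample 1, 2 or 3 called 347, 275 and 223 genes, 3, 2 and 1 members (without sample 2 Dpp10 was not called, without sample 3 only Kcnip4 was) and Snhg11 at -2.57, -1.94 and -1.96. edgeR called 0 to 2 genes as each sample was left out, 2 of them without Snhg11-ASO sample 1. The median of the members was -0.25 with the span correction, -0.24 with that correction and the replicate block, and -0.54 to -0.29 as each sample was left out, -0.29 without Control-ASO sample 2. The span correction left 3 members lower without overlap, in place of 5. The replicate block changed no call, with 0 members called, and gave -1.13 for Kcnip4, -0.65 for Dpp6, -1.07 for Dpp10, -0.54 for Kcnip1 and -0.45 for Kcnd2. The median of the calcium sensor list was 0.11 with the span correction, 0.10 with that and the block and 0.05 without Control-ASO sample 3, and that of the partner list was 0.02 without Control-ASO sample 2. The cause of these differences was not tested. With 3 samples per group and a biological coefficient of variation of 0.266, the small number of samples limits the precision, and Kcnd1, with 160 to 236 counts per sample, had the lowest counts of the members.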
